A study of Mus musculus with 2 samples.

Results

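The genes described here encode 10 subunits of the BAF chromatin remodeler, the mammalian SWI/SNF complex: *Smarca4*, *Smarcb1*, *Smarcc1*, *Smarcc2*, *Smarcd1*, *Smarcd2*, *Arid1a*, *Arid1b*, *Arid2* and *Pbrm1*. They were taken by symbol from the count files, which held 24421 gene symbols, and all 10 were found. RNA-seq was performed on hematopoietic stem cells (HSCs), with 1 library labelled WT (genotype Ezh2 +/+ CreERT+/-) and 1 labelled Ezh2 KO (Ezh2 Δ/Δ CreERT+/-), both C57BL/6. The donor marrow was CD45.2 and carried Cre-ERT, a recombinase that needs tamoxifen to act, with either Ezh2+/+ or Ezh2fl/fl. It was placed in lethally irradiated CD45.1 recipients. The protocol, given in the same words for both libraries, lists 100 μl of tamoxifen at 10 mg/ml a day for 5 days and a sort 1 month later for lineage-negative cells with Sca-1, c-Kit and CD150 and without CD34, CD48 and Flt3. The labels give no age and no number of animals, and the listed sort markers do not include the donor marker CD45.2. The promoter that drives Cre-ERT is not given in the sources used here.

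BAF complexes use the energy of ATP to move and evict nucleosomes and thereby keep regulatory DNA accessible. They are known as antagonists of Polycomb: BAF can displace Polycomb repressive complexes from chromatin, while PRC2, whose methyltransferase subunits are Ezh2 and Ezh1, deposits H3K27me3 and holds genes silent. Each complex has one ATPase, Smarca4 (BRG1) or Smarca2 (BRM), on a core of other subunits. Canonical BAF (cBAF) is set apart by Arid1a or Arid1b, polybromo BAF (PBAF) by Arid2 and Pbrm1, and a non-canonical form (ncBAF) by Brd9 and Gltscr1. In blood, BAF subunits are known to be needed for stem cell maintenance and for lineage choice.

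The libraries held 5763118 (WT) and 4157280 (labelled Ezh2 KO) gene counts, so 3 counts, the smallest level taken as detectable, equal 0.521 and 0.722 CPM. With 1 library per group no difference below has a replicate check, and intervals cover counting error only, as amplified reads that carry no molecular identifiers can come from one molecule. Counts of *Ezh2* itself were 166 and 129, or 142.5 and 150.3 normalised counts (counts divided by DESeq2 size factors), so no fall was seen. Whole-gene counts would not show a loss of the floxed exons alone, and that library is therefore called by its label throughout. The 9 HSC markers reported here were detected in both libraries, with a summed level of 2550 and 2608 CPM to which *Kit* gave the most. Of these, 1 was higher past counting error (*Ly6a*, log2 ratio 0.32) and 3 were lower, against 9.68% and 11.3% of all genes tested. The 3 were *Slamf1*, which encodes the sort marker CD150 (446.2 and 289.0 normalised counts, -0.62), *Fgd5* (523.5 and 348.4, -0.59) and *Ctnnal1* (227.4 and 139.8, -0.70). *Ctnnal1* also lay below the range of genes of similar expression. The median log2 ratio of the 9 was -0.11. Of the markers sorted against, *Cd34* had 957 (WT) and 829 counts (821.2 and 966.0 normalised counts, log2 ratio 0.23), *Flt3* 98 and 140 (84.1 and 163.1, 0.95), and *Cd48* 12 and 11 (10.3 and 12.8, 0.29). *Cd34* and *Flt3* were higher past counting error in the library labelled Ezh2 KO, and *Flt3* lay above the range of genes of similar expression. The summed level of 8 neutrophil markers was 1846 CPM in WT against 3672 CPM in the library labelled Ezh2 KO, that of 5 eosinophil markers 1.21 and 760 CPM, that of 6 erythroid markers 58.5 and 204 CPM, and that of 6 B lymphoid markers 4.86 and 39.4 CPM. Of 5 T and NK markers all were at 0 in WT, where 3 eosinophil and 3 B lymphoid markers also were, and in the other library 2 of the T and NK markers were at 0. *Xist* had 801 counts in WT against 4 in the library labelled Ezh2 KO, whereas 4 Y-linked genes were at 0 in WT and detected in the other. The part of cell composition, of these marker differences or of the sex of the animals in the differences below was not tested. In bulk RNA a change in the number of cells of one type cannot be told apart from a change in RNA per cell.

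Between the 2 libraries *Smarca4*, *Arid1a* and *Pbrm1* were higher in the one labelled Ezh2 KO by more than counting error (an adjusted p below 0.01 in an exact binomial test of the counts, over all genes), and the other 7 genes did not pass. The promoters of these 3 genes are shown first because they are the members whose counts differed. Each is the stretch of 250 bases that ends just before the RefSeq transcription start, read 5′ to 3′ along the gene from RefSeq's GRCm38.p6 sequence, with every CG dinucleotide in capitals. That of *Smarca4* lies at chr9:21615919-21616168 on the plus strand, that of *Arid1a* at chr4:133756770-133757019 on the minus strand and that of *Pbrm1* at chr14:31018888-31019137 on the plus strand.
Smarca4: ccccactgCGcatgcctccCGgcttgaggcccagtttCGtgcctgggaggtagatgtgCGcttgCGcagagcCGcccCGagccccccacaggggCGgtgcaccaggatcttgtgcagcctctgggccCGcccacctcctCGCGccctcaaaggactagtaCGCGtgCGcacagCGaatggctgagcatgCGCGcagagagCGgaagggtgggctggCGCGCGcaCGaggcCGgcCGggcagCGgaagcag
Arid1a: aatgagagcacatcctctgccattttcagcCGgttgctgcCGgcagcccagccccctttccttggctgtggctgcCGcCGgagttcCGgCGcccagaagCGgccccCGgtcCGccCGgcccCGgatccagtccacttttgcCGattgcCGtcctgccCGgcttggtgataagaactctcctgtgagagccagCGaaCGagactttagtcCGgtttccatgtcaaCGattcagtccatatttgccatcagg
Pbrm1: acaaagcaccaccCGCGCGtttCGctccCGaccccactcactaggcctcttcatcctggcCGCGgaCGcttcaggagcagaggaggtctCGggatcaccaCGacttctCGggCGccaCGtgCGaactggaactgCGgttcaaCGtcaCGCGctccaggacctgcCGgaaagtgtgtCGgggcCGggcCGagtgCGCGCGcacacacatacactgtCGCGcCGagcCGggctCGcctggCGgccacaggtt

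All 3 windows are dense in CG, with 25 CG dinucleotides before *Smarca4*, 18 before *Arid1a* and 31 before *Pbrm1*, against a median of 6 over 32851 windows of the same length in the table. This density was not particular to the genes that differed. A window was found for 9 of the 10 genes (*Arid2* had none), and in these the number ran from 4 to 40 with a median of 25. The lowest, 4, was at *Smarcd2*, and the highest, 40, at *Smarcc2*, neither of which passed counting error. The windows of *Smarcd2*, *Smarcc1* and *Arid1b* start inside the gene as GENCODE annotates it, and a second start of *Arid1a* in RefSeq has 33. GC content ran from 56.4% to 80.8%, with a median of 52.4% over all windows. The GC box GGGCGG, searched on both strands and holding 1 CG itself, was present at 7 of the 9 genes and in 32.7% of all windows. The ETS core CCGGAA, which also holds a CG, was present at 4 of the 9 and in 12.03% of windows, TATAAA at 1 (*Smarcd2*) and in 12.4%, and CCAAT at 0 and in 33.8%. These are matches of letters, not sites of binding.

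**Figure D1:**
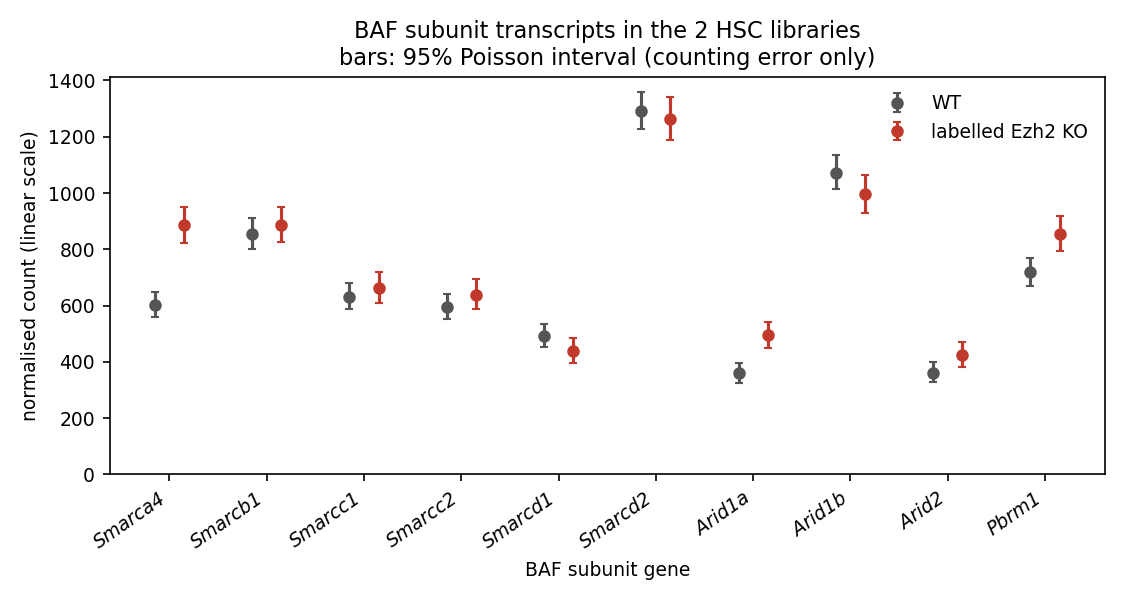
Normalised counts (linear y axis) of the 10 BAF subunit genes in the WT library (grey) and the library labelled Ezh2 KO (red), 1 library each, with 95% Poisson intervals that cover counting error only. *Smarca4* stands at 602.4 and 885.6 and *Arid1a* at 358.7 and 494.1 with intervals apart, while the intervals of *Smarcb1*, *Smarcc1*, *Smarcc2* and *Smarcd2* overlap.

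*Smarca4*, the ATPase that drives the complex (chromosome 9, 21616169 to 21704230 in mm10), showed the largest difference of the 10 genes. It had 702 counts in WT against 760 in the library labelled Ezh2 KO, although the second was the shallower, which gives 602.4 and 885.6 normalised counts. The ratio of the library labelled Ezh2 KO over WT was 1.47-fold, or 0.56 on the log2 scale of the normalised count plus 1 (95% interval 0.41 to 0.71, adjusted p = 1.15e-11 in the exact binomial test across all genes). This test compares the reads of 2 libraries and not the conditions. The difference did not reach 2-fold.

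*Arid1a* (chromosome 4, 133679008 to 133756769), which encodes the large DNA-binding subunit that marks cBAF, was the next largest. Its 418 and 424 counts correspond to 358.7 normalised counts in WT against 494.1 in the library labelled Ezh2 KO, a ratio of 1.38-fold and a log2 ratio of 0.46 (0.26 to 0.66, adjusted p = 5.17e-05 in the same exact test). *Arid1b* (chromosome 17, 4994332 to 5347656), the alternative to Arid1a in the same position of cBAF, did not follow it. It had 1250 and 855 counts, or 1073 and 996.3 normalised counts, with a log2 ratio of -0.11 (-0.23 to 0.02).

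Both PBAF subunits among the 10 lay above WT, one of them past counting error. *Pbrm1* (chromosome 14, 31019138 to 31121592), a protein with several bromodomains that read acetylated histones, had 838 and 732 counts, or 719.1 and 853.0 normalised counts. Its log2 ratio was 0.25 (0.10 to 0.39, adjusted p = 0.00454, exact binomial test). *Arid2* (chromosome 15, 96287518 to 96404992), the ARID subunit of PBAF, had 422 and 364 counts, or 362.1 and 424.2 normalised counts, with a log2 ratio of 0.23 (0.02 to 0.43). Its p of 0.0277 in the exact test became 0.0773 after adjustment over all genes.

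Of the 5 core subunits 0 passed the test. *Smarcb1* (SNF5; chromosome 10, 75896769 to 75921617), which contacts the nucleosome's acidic patch, had 996 and 761 counts, or 854.7 and 886.8 normalised counts, with a log2 ratio of 0.05 (-0.08 to 0.19). Of the scaffold pair, *Smarcc1* (chromosome 9, 110117708 to 110240178) had 736 and 569 counts, or 631.6 and 663.1 normalised counts, with a log2 ratio of 0.07 (-0.09 to 0.23). *Smarcc2* (chromosome 10, 128459248 to 128490482) had 694 and 548 counts, or 595.6 and 638.6 normalised counts, with a log2 ratio of 0.10 (-0.06 to 0.26). For these 3 genes the upper bound of the interval is below the lower bound of *Smarca4*.

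*Smarcd1* and *Smarcd2*, whose proteins link the complex to transcription factors, were the core genes among the 10 with ratios below 0, and both intervals cross 0. *Smarcd1* (chromosome 15, 99702129 to 99713991) had 573 and 376 counts, or 491.7 and 438.2 normalised counts, with a log2 ratio of -0.17 (-0.36 to 0.02). *Smarcd2* (chromosome 11, 106263179 to 106272972), the family member known for its role in granulocyte maturation, had 1506 and 1083 counts, or 1292 and 1262 normalised counts, with a log2 ratio of -0.03 (-0.15 to 0.08). The sign of *Smarcd2* turned to 0.01 once the trend of ratios with exon length was removed. Beside it, 7 of 8 neutrophil markers were higher past counting error in the library labelled Ezh2 KO and 1 was lower. Among all genes tested, 9.68% were higher and 11.3% lower. A link between these markers and *Smarcd2* was not tested.

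Counted together, 0 of the 10 genes were called at 2-fold or more with an adjusted p below 0.01, against 2.8% of the 12588 genes tested that were higher and 2.3% that were lower. A threshold of 1.5-fold also called 0, against 4.97% and 5.05%. Without a fold threshold 3 of 10 were higher and 0 lower, where 9.68% of all genes tested were higher and 11.3% lower. Those shares are of genes at all levels, whereas the 10 genes sit between percentiles 74.1 and 94.9 of expression, where counting error is small. The median log2 ratio of the 10 genes was 0.09 and that of all genes tested -0.00, and 7 of 10 ratios were above 0 against 49.6% of genes tested. With an assumed coefficient of variation of 0.2 between libraries, the exact test of edgeR left 0 of the 3. Few genes of any kind pass that test at 2-fold. Over all genes tested it called 41 higher and 22 lower, where the main test called 353 and 290.

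Genes of similar expression give a second scale, since their ratios spread more widely than counting error. The genes tested were divided into 10 groups of expression, and the central 95% of log2 ratios ran from -0.57 to 0.46 in the group of *Smarca4*. *Smarca4*, at 0.56, lay above that range. *Arid1a* lay inside the range of its own group (-0.63 to 0.53), as did *Pbrm1* (-0.57 to 0.46). Thus 1 of 10 members lay above the range and 0 below it, against 2.53% and 2.54% of all genes, which the definition fixes.

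**Figure D2:**
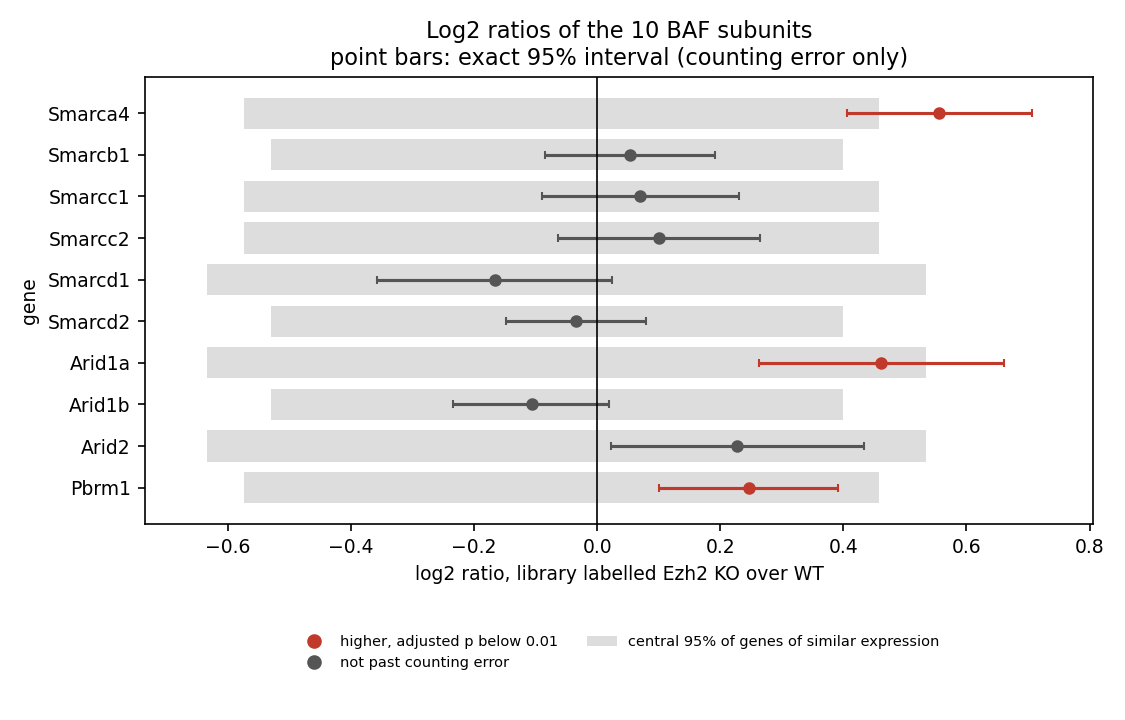
Log2 ratios of the 10 BAF subunits (x axis, library labelled Ezh2 KO over WT) with exact 95% intervals for counting error, over grey bars that span the central 95% of ratios of genes of similar expression. *Smarca4* at 0.56 is beyond its grey bar, and *Arid1a* at 0.46 and *Pbrm1* at 0.25 are within theirs.

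Because BAF subunits come in families whose members compete for one position, the balance within each pair was compared next. A ratio of counts between genes of one library does not depend on how the libraries are scaled. *Smarca2* (chromosome 19, 26605050 to 26778322), the alternative ATPase, had 1698 and 1143 counts, or 1457 and 1332 normalised counts, with a log2 ratio of -0.13 (-0.24 to -0.02). Its p of 0.0195 in the exact test became 0.0589 after adjustment, so it did not pass. The *Smarca4* share of the counts of both ATPases was 29.25% in WT (exact 95% interval 27.4% to 31.1%) against 39.9% in the library labelled Ezh2 KO (37.7% to 42.2%). The count ratio of *Smarca4* to *Smarca2* was thus 1.61 times that in WT (1.41 to 1.83).

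The *Arid1a* to *Arid1b* ratio moved in the same direction. *Arid1a* made up 25.1% of the counts of the pair in WT (23.0% to 27.2%) against 33.2% in the library labelled Ezh2 KO (30.6% to 35.8%), and the count ratio was 1.48 times that in WT (1.26 to 1.75). In both pairs the gene with fewer counts in WT gained share. This did not hold for every pair, as *Smarcd1*, with fewer counts than *Smarcd2*, went from 27.6% to 25.8%. On the log2 scale the shifts were 0.69 and 0.57. They share the *Smarca4* (0.56) and *Arid1a* (0.46) differences given above, and neither *Smarca2* nor *Arid1b* passed the test. How widely such shifts spread over other gene pairs was not measured.

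The other pairs did not differ beyond counting error. The *Smarcc1* to *Smarcc2* count ratio was 1.06 and 1.04, a change of 0.979 times (0.835 to 1.15). The *Smarcd1* to *Smarcd2* ratio was 0.380 and 0.347, a change of 0.912 times (0.782 to 1.06), and within all 3 Smarcd genes *Smarcd2* held 70.7% of counts in WT against 71.8% in the library labelled Ezh2 KO. Between complexes, *Arid1a* to *Arid2* changed 1.18 times (0.963 to 1.44), and *Arid2* to *Pbrm1*, both of PBAF, 0.987 times (0.828 to 1.18). For these 4 pairs the bounds give the changes that the counts could not separate from none.

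**Figure D3:**
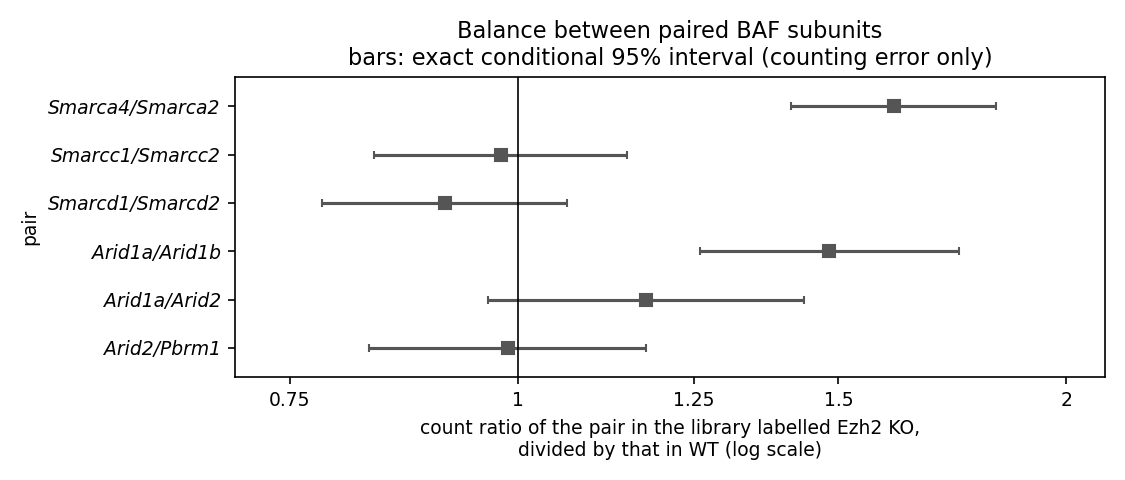
Count ratio of each pair of BAF subunits in the library labelled Ezh2 KO divided by that in WT (x axis, log scale), with exact conditional 95% intervals for counting error. The pairs *Smarca4*/*Smarca2* at 1.61 and *Arid1a*/*Arid1b* at 1.48 lie right of 1, and the intervals of the other 4 pairs cross 1.

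Similar sequence between paralogs is one way in which reads can be given to the wrong gene, so shared sequence was counted. Of all 60-base windows in the annotated transcripts of the 10 members, 0 occurred in another BAF gene. Windows shared with any other gene made up at most 7.3% (*Smarcd1*, mostly with the gene model *Gm17349*), 0.653% for *Smarca4*, 0.406% for *Arid1a* and 0% for *Arid1b* and *Smarca2*. Exons of *Smarcc1* and *Pbrm1* overlap a gene on the opposite strand, over 123 bases (*Dhx30*) and 15 bases (*Gnl3*), and the use of strand in counting is not known.

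Levels of different genes were compared per kilobase of exon, over exons of transcripts matched to RefSeq. *Smarcb1* was the highest, with 515 normalised counts per kb in WT against 534 in the library labelled Ezh2 KO, followed by *Smarcd2* with 427 and 417. The first place of *Smarcb1* rests on its exon length of 1660 bases: with all annotated exons it fell to 108 and 112 per kb, below *Smarcd2* at 360 and 352. At the low end *Arid1a* (43.9 and 60.4 per kb) and *Arid2* (42.6 and 49.9 per kb) had overlapping intervals in each library, and both stayed lowest with all exons. *Smarca4* ranked 8 of 10 in WT at 94.5 per kb, where its interval overlapped that of *Arid1b* (94.7). In the library labelled Ezh2 KO it was the third at 138.9 per kb, where its interval overlapped those of *Smarcd1* (132.5), *Pbrm1* (129.9) and *Smarcc2* (128.5). With all annotated exons it ranked 5 in WT and 2 in the other library. *Smarca2* exceeded *Smarca4* per kb in both libraries, at 235 and 215. With all annotated exons the 2 ATPases were nearly level in WT, at 102 for *Smarca2* and 93.0 for *Smarca4*, and in the library labelled Ezh2 KO *Smarca4* was the higher, at 136.8 against 93.3.

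The 10 genes together held 8135 counts in WT against 6472 in the library labelled Ezh2 KO, 0.141% and 0.156% of gene counts. Within this sum *Smarca4* took 8.63% (8.03% to 9.26%) and 11.7% (11.0% to 12.6%). *Smarcd2* took the most in both, 18.5% and 16.7%. Shares of *Smarcb1*, at 12.2% and 11.8%, and of *Smarcc2*, at 8.53% and 8.47%, were nearly level.

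The rest of the BAF family was read from a list of 19 other subunits. Of these, 17 reached a mean of 1 CPM, while *Actl6b*, a subunit of neurons, had 0 counts in both libraries and *Dpf3* had 3 and 4. At 2-fold, 1 of 17 was called higher and 0 lower, against 2.8% and 2.3% of all genes tested. That gene was *Dpf1*, a neuronal cBAF subunit, with 1 count in WT against 10 in the library labelled Ezh2 KO. Its log2 ratio of 2.77 is of the normalised count plus 1, whereas its interval (0.95 to 9.20) is of the counts themselves. Both rest on very few reads, and the WT count is below the detectable level of 3. *Dpf1* reached the mean of 1 CPM only through the library labelled Ezh2 KO (0.174 CPM in WT, 2.41 CPM in the other). The filter thus favoured a higher call, and no support is drawn from it. Without a fold threshold 2 were higher (*Dpf1* and *Actb*) and 1 lower (*Gltscr1*), against 9.68% and 11.3% of all genes tested. The median log2 ratio of the 17 was 0.02. *Actb*, the actin of the ATPase module and of the cytoskeleton, had 11727 and 13534 normalised counts, with a log2 ratio of 0.21 (0.17 to 0.24).

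Of the 3 ncBAF genes 0 had a ratio above 0, against 49.6% of genes tested. The test was passed by 1, as a lower gene, against 11.3% of genes tested. *Gltscr1*, which defines ncBAF together with Brd9, had 143 and 53 counts, or 122.7 and 61.8 normalised counts, with a log2 ratio of -0.98 (-1.47 to -0.53, adjusted p = 0.000105 in the exact test). It just missed the 2-fold threshold and lay inside the range of genes of similar expression (-1.02 to 0.97). *Gltscr1l*, its paralog, had 267 and 152 counts and a log2 ratio of -0.37 (-0.67 to -0.08), and *Brd9* had 168 and 110 counts and a log2 ratio of -0.17 (-0.53 to 0.19), with adjusted p of 0.0397 and 0.528 in the exact test. Of the 4 PBAF genes all lay above 0, with *Phf10* at 0.21 (-0.06 to 0.49) and *Brd7* at 0.14 (-0.11 to 0.38). Only *Pbrm1* passed, where 9.68% of genes tested were higher. With so few genes in each form, these counts do not tell ncBAF and PBAF apart.

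The other core and module subunits, apart from *Actb* and *Dpf1* above, did not pass the test. *Smarce1*, a DNA-binding core subunit, had 567.2 and 640.9 normalised counts, with a log2 ratio of 0.18 (0.01 to 0.34). *Smarcd3* was low, at 50 and 49 counts (0.40, -0.19 to 1.01), and 48.2% of its exon bases overlap *Chpf2* on the other strand, so its count is uncertain. *Actl6a*, an actin-related protein, had a log2 ratio of 0.02 (-0.15 to 0.20) and *Dpf2*, the cBAF subunit with paired PHD fingers, -0.02 (-0.13 to 0.10). *Ss18* (-0.18) and *Bcl7c* (-0.25) had adjusted p of 0.0400 and 0.0345 in the exact test, short of 0.01, and *Bcl7b* (-0.12), *Bcl7a* (0.47) and *Ss18l1* (0.04) did not pass either. Sequence shared with other genes covers 14.5% of 60-base windows of *Smarce1*, 10.5% of *Gltscr1l* and 9.73% of *Actl6a*, which leaves their counts less certain.

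**Figure D4:**
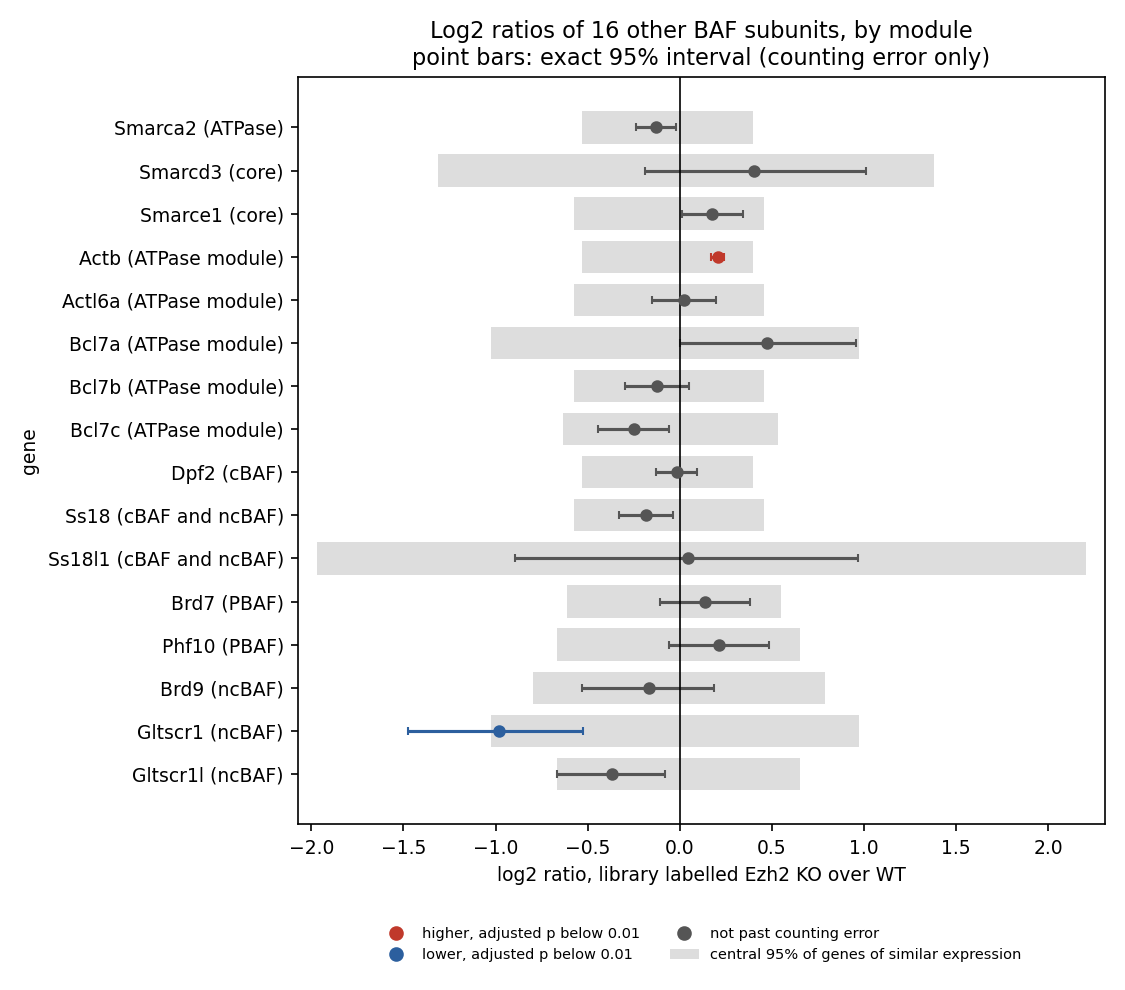
Log2 ratios of 16 other BAF subunits (x axis, library labelled Ezh2 KO over WT), ordered by module, with exact 95% intervals for counting error and grey bars for the central 95% of genes of similar expression. *Gltscr1* at -0.98 and *Actb* at 0.21 pass counting error, and all 16 points lie inside their grey bars. *Dpf1* is left out because 1 and 10 counts give an interval too wide for the axis.

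Polycomb repressive complex 2, the opponent of BAF, was set beside these values. Its core genes had log2 ratios of 0.08 (*Ezh2*), -0.15 (*Ezh1*), -0.30 (*Eed*) and 0.11 (*Suz12*). After adjustment 0 of 4 passed counting error, where 9.68% of all genes tested were higher and 11.3% lower. *Eed* came nearest, with an interval of -0.53 to -0.08 and an adjusted p of 0.0303 in the exact test. The summed counts of the 10 BAF genes were 4.51 times those of the 4 PRC2 core genes in WT against 5.23 times in the library labelled Ezh2 KO, a change of 1.16 times (1.07 to 1.26). For single genes, *Smarca4* to *Ezh1* went from 0.835 to 1.36 (1.63 times, 1.40 to 1.89) and *Smarca4* to *Ezh2* from 4.23 to 5.89 (1.39 times, 1.07 to 1.81). These 3 ratios were chosen after the values were seen, and all include the *Smarca4* difference given above. They also include differences of the PRC2 genes, whose summed level was 313 CPM in WT and 298 CPM in the library labelled Ezh2 KO.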

How the data were processed

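The authors deposited raw read counts by gene symbol, 1 file per library. Per the labels, TopHat2 2.0.13, Bowtie2 2.1.0 and mouse mm10 were used. The study's methods, which describe its RNA-seq of other HSC samples and not these libraries by name, pair the same aligners with single reads and the iGenomes annotation. StringTie is also named there, but each file ends with 5 entries in the style of htseq-count, so the counter and its strand setting are not known. Those entries hold 56.1% (WT) and 56.9% of all entries and were left out. The members and gene lists were chosen with earlier results of these data known.

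Counts were divided by DESeq2 1.42.0 size factors (1.17 and 0.858), and genes with a mean of at least 1 CPM were tested. Since 1 library per group gives no spread, the counts of each gene were compared by an exact binomial test (two-sided, conditional on their sum) with Benjamini-Hochberg adjustment, and a gene was called at an adjusted p below 0.01 and 2-fold. The pseudocount was 1, and it enters the log2 ratios of single genes but not their intervals. Intervals on ratios are Clopper-Pearson, on levels Poisson, on pairs conditional exact. The named genes are the 10 members, the other BAF subunits with at least 10 counts in a library, the PRC2 core and genes that check labels. *Actl6b* and *Dpf3* fall outside this rule and are named to account for the list. *Siglec5*, listed as an eosinophil marker, did not match a symbol. One further HSC marker is not reported here. Exon lengths and positions come from GENCODE M21 (GRCm38, the assembly of mm10), with 23376 symbols matched as given and 651 through an older name. The script was tested on simulated data. Further tools were R 4.3.3, edgeR 4.0.16, Python 3.11.15 and scipy 1.17.1. Alternatives were TMM and total-count scaling, other filters, thresholds and pseudocounts, assumed coefficients of variation of 0.2 and 0.4, and removal of the exon-length trend (running median over 501 genes).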

Additional observations from a re-analysis of the deposited data

Results flagged for a closer look

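Outside the gene counts, reads with more than one alignment made up 12.3% of all entries in the library labelled Ezh2 KO and 10.7% in WT. It was picked out because these entries are in no comparison of gene counts and exceeded the level in WT. Whether a member's count also includes such reads is not known, since the counter and its settings are not known.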

How the results depend on the processing

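The number of members past counting error depended on the spread allowed between libraries. Without a fold threshold 3 members were higher (*Smarca4*, *Arid1a* and *Pbrm1*), against 0 called at 2-fold, and with an assumed coefficient of variation of 0.2 or of 0.4 the number was 0. Of 96 values recomputed, these 3 were the only counts that changed by more than 1.5 times. That rule was not used for log2 ratios, some of which lie near 0. The log2 ratio of *Smarcb1*, 0.05 in the main setting, ran from 0.03 to 0.08. The median log2 ratio of the members lay between 0.08 and 0.12 over scalings, pseudocounts and exon-length removal, against a main value of 0.09, and the mean in its place was 0.14. Total-count scaling moved the median of all genes tested to 0.03. Of the 10 members, only *Smarcd2*, which did not pass the test, changed sign, from -0.03 to 0.01 under removal of the exon-length trend. The assumed coefficients are not measurements, since each group has 1 library here. No paired analysis was possible because the labels give 1 WT and 1 Ezh2 KO library, and for the same reason none could be left out. Over all genes, 353 were called higher and 290 lower at 2-fold, against 96 and 115 with a mean of at least 10 CPM, 41 and 22 at an assumed coefficient of 0.2, and 8 and 2 at 0.4.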

Other observations

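Chromatin remodelers outside the BAF family were read from a list of 16 ATPases of the ISWI, CHD, INO80 and related families. Their median log2 ratio was -0.05, with 6 of 16 above 0, against 49.6% of genes tested. Past counting error 1 was higher and 1 lower, against 9.68% and 11.3% of all genes tested. At 2-fold 0 were called, against 2.8% higher and 2.3% lower. *Chd2*, a remodeler of active genes, had 337 counts in each library, or 289.2 and 392.7 normalised counts (0.44, 0.22 to 0.66). *Hells*, a remodeler that assists DNA methylation and is high in cycling cells, had 165 and 67 counts, or 141.6 and 78.1 normalised counts (-0.85, -1.29 to -0.44). *Smarca5*, the main ISWI ATPase, and *Chd4*, the NuRD ATPase, had log2 ratios of -0.02 (-0.16 to 0.12) and -0.09 (-0.23 to 0.06). *Chd2* and *Hells* are named because they passed, and *Smarca5* and *Chd4* as the best known, all after their values were seen. The summed level of the list was 1061 CPM in both libraries, while that of the 10 BAF genes was 1412 CPM in WT and 1557 CPM in the library labelled Ezh2 KO.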
